A study of Mus musculus with 4 samples.

Results

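The D-type cyclins and the inhibitors of cyclin-dependent kinases (CDKs) were described across 4 samples of sorted cells from mouse small intestine, with 1 array in each group. The 8 genes considered were Ccnd1, Ccnd2, Ccnd3, Cdkn1a, Cdkn1b, Cdkn1c, Cdkn2b and Cdkn2c, matched by the platform's gene symbol or a synonym of it. A named probe was found for 6 of the 8, out of 16390 named genes on the array, and each of the 6 had 1 probe. No probe named Ccnd1 or Cdkn2b was found, so these 2 genes were not analysed here. The groups were Dclk1+ tumor cells from intestinal tumors pooled over 7 Dclk1CreERT2/+; ApcMin/+ mice older than 16 weeks, Dclk1- tumor cells from 1 such mouse of 17 weeks, Dclk1+ normal cells pooled over 2 Dclk1CreERT2/+ mice of 26 weeks, and Dclk1- normal cells from 1 Dclk1CreERT2/+ mouse of 26 weeks. All mice were male, and all carried the Dclk1CreERT2 allele, in which a tamoxifen-inducible Cre is placed at the Dclk1 locus. ApcMin is a truncating allele of Apc that gives rise to adenomas of the intestine. The labels give sorting on GFP for Dclk1+ tumor cells; the sources used here do not give the gates of the other samples or any tamoxifen treatment.

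D-type cyclins bind CDK4 and CDK6, and the active kinases phosphorylate the retinoblastoma protein Rb, which releases E2F factors that drive genes for DNA replication. The Cip/Kip inhibitors, p21 (Cdkn1a), p27 (Cdkn1b) and p57 (Cdkn1c), bind cyclin and CDK complexes, while the Ink4 inhibitors, among them p18 (Cdkn2c) and p15 (Cdkn2b), bind CDK4 and CDK6 themselves. In the intestine, D cyclins are expressed in cycling crypt cells, Ccnd2 is raised after loss of Apc in mice, and Cdkn1a accompanies the exit from the cycle as cells leave the crypt. The kinase Dclk1 is a marker of tuft cells, chemosensory cells of the gut epithelium that have mostly left the cycle.

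Levels are quoted below as deposited intensities, which are on a linear scale on which the median of the probes that the authors listed lies between 24.99 and 25.01 on each array. Differences are log2 differences of the spot intensities after background correction with an offset of 50 and quantile normalisation. The offset makes the differences of dim genes too small. A spot was called above background when it exceeded the mean of its array's blank spots by 2 SD. A gene was called higher or lower when it differed 2-fold or more and was above background on at least 1 of both arrays. There was no replicate in any group, so each difference is between 2 arrays, no test was possible and no p-value is given. In bulk samples, fewer cells of a type and less RNA per cell cannot be told apart.

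Across the samples, 63.3% to 70.9% of the 23473 probes were above background. Dclk1 itself stood at 61.8 in the Dclk1+ and 9.49 in the Dclk1- tumor sample, and 736 in the Dclk1+ and 179.8 in the Dclk1- normal sample. Its log2 difference of Dclk1+ over Dclk1- was 0.70 in tumor, below 2-fold, and 1.41 in normal epithelium. Dclk1 in the Dclk1- normal sample was above that in the Dclk1+ tumor sample. Of 13 tuft markers with a probe, 10 were 2-fold or more higher in Dclk1+ than in Dclk1- tumor cells and 0 lower, and 12 were higher and 0 lower in normal epithelium. The summed tuft intensity was 21692 in the Dclk1+ and 451 in the Dclk1- tumor sample, and 85473 in the Dclk1+ and 415 in the Dclk1- normal sample. All 4 samples also held signal of other lineages, and the summed goblet intensity ran from 8040 in Dclk1+ normal to 181171 in Dclk1- normal. Tumor and normal samples also differ in the ApcMin allele and in the series of the array. The Dclk1- samples differ in age, 17 weeks in tumor and 26 in normal. For Dclk1+ the tumor mice are given only as older than 16 weeks, against 26 weeks in normal. The Dclk1+ samples pool 7 mice in tumor and 2 in normal, and each Dclk1- sample is from 1 mouse. These cannot be told apart from histology, nor pooling from Dclk1 status.

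Cdkn1a had the widest range of log2 signal among the 4 of the 6 genes with a promoter in the RefSeq tables (GRCm38.p6), and its promoters are shown for that reason. RefSeq gives Cdkn1a, on the plus strand of chromosome 17, an upstream and a downstream start 2790 bases apart. Each window runs from 250 bases before the start to 50 after it. Capitals mark a pair of adjoining p53 half-sites (decamers, 1 mismatch allowed over both), the letters GGGCGG and the letters TATAA, each searched on both strands.
Cdkn1a upstream start, chr17:29090729-29091028: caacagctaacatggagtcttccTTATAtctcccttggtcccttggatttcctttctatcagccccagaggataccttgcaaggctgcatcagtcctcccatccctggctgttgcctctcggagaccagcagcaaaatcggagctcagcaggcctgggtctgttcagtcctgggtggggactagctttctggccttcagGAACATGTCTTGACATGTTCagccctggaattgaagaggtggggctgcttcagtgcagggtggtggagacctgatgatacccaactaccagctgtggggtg
Cdkn1a downstream start, chr17:29093519-29093818: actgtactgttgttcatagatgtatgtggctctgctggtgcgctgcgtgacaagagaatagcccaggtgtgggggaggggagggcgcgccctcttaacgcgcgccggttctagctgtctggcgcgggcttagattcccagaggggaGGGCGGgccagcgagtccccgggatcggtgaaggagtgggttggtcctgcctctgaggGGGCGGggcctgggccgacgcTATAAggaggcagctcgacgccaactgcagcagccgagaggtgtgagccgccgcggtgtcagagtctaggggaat
The half-site pair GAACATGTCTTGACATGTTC, with 1 mismatch to the p53 consensus, lies in the upstream window. Any pair of p53 half-sites, whatever its letters, with up to 1 mismatch was found in 0.088% of the 32851 promoter windows searched. The downstream window holds GGGCGG at 2 places, and 35.7% of all windows hold it at least once. TATAA, on either strand, is present in both Cdkn1a windows and in 24.9% of all windows. No pair of p53 half-sites was found in the 5 windows of Ccnd3, Cdkn1b and Cdkn2c. These matches describe letters only, and the arrays do not tell which start was used.

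Of the D cyclins, Ccnd2 separated the samples widely. Its deposited intensity was 2006 in the Dclk1+ and 1674 in the Dclk1- tumor sample, and 79.9 in the Dclk1+ and 990.4 in the Dclk1- normal sample. Both tumor samples were thus bright, Dclk1- normal was below them, and Dclk1+ normal was far below the rest. The log2 difference of tumor over normal was 3.95 in Dclk1+ cells, higher than that of 99.8% of the 12869 genes compared, and 1.06 in Dclk1- cells, higher than 94.7% of 12340 genes. Over the settings these ran from 3.77 to 4.86 and from 0.76 to 1.65, so that in Dclk1- cells the 2-fold line was not passed under median scaling, 75th percentile scaling or with the deposited values. Between Dclk1+ and Dclk1- cells the difference was -2.89 in normal epithelium, higher than in 1.02% of 12844 genes. In tumor it was -0.00, and over the alternative settings it ran from -0.29 to 0.26 with no fixed sign.

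Ccnd3, the D cyclin best known from lymphoid and other differentiated cells, was dim on every array. It stood at 9.56 in the Dclk1+ and 6.74 in the Dclk1- tumor sample, and 12.98 in the Dclk1+ and 9.05 in the Dclk1- normal sample. All 4 samples were above background, and their log2 signals lay within 0.05 of each other. Its 4 differences ran from -0.03 to 0.05, and the sign of 3 of them turned under at least 1 alternative setting. On the deposited scale the ratio of Dclk1+ over Dclk1- was 1.42 in tumor and 1.43 in normal epithelium. The offset shrinks ratios at such dim signals, but the deposited values are also not level between arrays. Their all-gene median log2 differences were 0.35 in the tumor and 0.27 in the normal pair. With the blank mean subtracted and no offset, the log2 differences of Ccnd3 were 0.18 in tumor and 0.43 in normal epithelium.

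Among the Cip/Kip inhibitors, Cdkn1a was bright in all samples and dimmer in tumor. It stood at 607 in the Dclk1+ and 256 in the Dclk1- tumor sample, and 3284 in the Dclk1+ and 1203 in the Dclk1- normal sample. Both normal samples were above both tumor samples, and within each histology the Dclk1+ sample was above the Dclk1- one. The log2 difference of tumor over normal was -1.88 in Dclk1+ cells and -1.80 in Dclk1- cells, where 0.56% and 1.79% of genes had a lower value. Dclk1+ over Dclk1- gave 0.88 in tumor and 0.96 in normal epithelium, just under the 2-fold line in both, and 0.59 to 1.24 and 0.96 to 1.45 over the settings.

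Cdkn1c, an imprinted gene whose product p57 holds cells out of the cycle, showed the other wide separation. It stood at 113 in the Dclk1+ and 60.5 in the Dclk1- tumor sample, and 1437 in the Dclk1+ and 8.998 in the Dclk1- normal sample. Dclk1+ normal cells were far above the other samples, the tumor samples were intermediate and close together, and Dclk1- normal cells were close to background. Dclk1+ over Dclk1- was 3.91 in normal epithelium, above 99.7% of genes, and 0.40 in tumor, above 90.5%. Over the settings these ran from 3.26 to 7.32 and from 0.20 to 0.90. On the deposited scale, which has no offset and is not level between arrays, the ratio was 160 in normal and 1.86 in tumor. Tumor over normal was -2.67 in Dclk1+ cells, with a lower value in 0.039% of genes, but 0.83 in Dclk1- cells. Over the settings these ran from -3.67 to -2.36 and from 0.39 to 3.05. In Dclk1- cells the 2-fold line was passed with an offset of 16 (1.51) and with the blank mean subtracted (3.05), and the deposited ratio was 6.72.

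Cdkn1b, which encodes p27, was not above background in either tumor sample. In normal epithelium it stood at 9.33 in Dclk1+ and 2.98 in Dclk1- cells, and the value in Dclk1- cells was no longer above background when 3 SD were required. Its signal in Dclk1+ normal cells was at least 1.07-fold that of Dclk1+ tumor cells at the main setting. That difference, tumor over normal, ran from -2.12 with the deposited values and -1.46 with the blank mean subtracted to -0.01 with the local background subtracted, and under the first pair of these settings Cdkn1b was a further gene 2-fold or more lower, which makes 3. Dclk1+ over Dclk1- was 0.10 in normal epithelium and ran from 0.02 to 1.65 over the settings. No size is given for the tumor pair, with both arrays below background, or for tumor over normal in Dclk1- cells.

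The Ink4 inhibitor Cdkn2c, p18, differed little between the samples. It stood at 82.2 in the Dclk1+ and 49.5 in the Dclk1- tumor sample, and 70.3 in the Dclk1+ and 96.6 in the Dclk1- normal sample. Dclk1+ over Dclk1- was 0.28 in tumor but -0.31 in the normal pair, whereas tumor over normal was 0.19 in Dclk1+ cells and -0.41 in Dclk1- cells. Each of these was below 2-fold and kept its sign under every alternative setting run for it. The related gene Cdkn2a, for p16 and p19Arf, was not above background on any array.

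**Figure D1:**
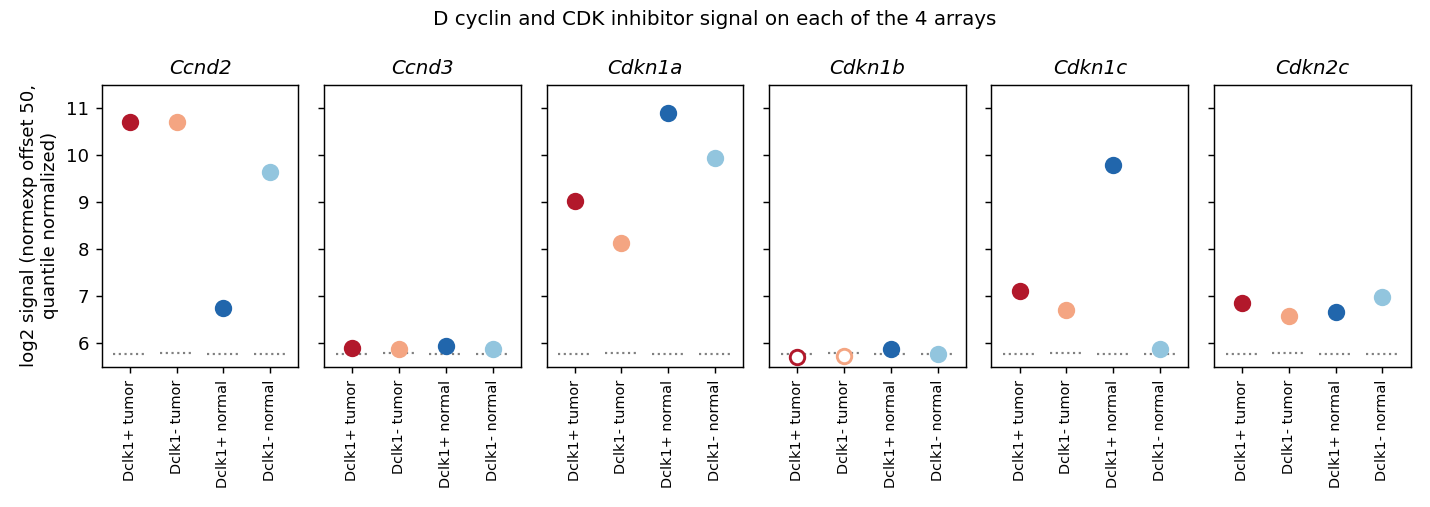
Log2 signal (normexp with an offset of 50, quantile normalized) of the 6 genes on each of the 4 arrays, 1 point per array; open points were not above background, and the dotted marks give the lowest log2 signal above background on that array. Ccnd2 is lowest and Cdkn1c highest in Dclk1+ normal cells, Cdkn1a is lower in both tumor samples than in both normal ones, and Ccnd3 and Cdkn1b sit at the floor.

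Counted together, 1 of the 6 genes was 2-fold or more higher (Cdkn1c) and 1 lower (Ccnd2) in Dclk1+ than in Dclk1- normal cells, where 5.66% of all genes were higher and 5.92% lower. In tumor, 5 of the 6 were above background on at least 1 of both arrays, and 0 were higher and 0 lower, where 1.77% of all genes were higher and 2.14% lower. For tumor over normal in Dclk1+ cells, 1 was higher (Ccnd2) and 2 lower (Cdkn1c and Cdkn1a), beside 4.27% and 4.20% of all genes. In Dclk1- cells, 1 was higher (Ccnd2) and 1 lower (Cdkn1a), beside 5.84% and 5.27%. At 4-fold or more, Cdkn1c stayed higher and Ccnd2 lower in the normal pair, beside 1.61% of all genes higher and 2.16% lower, and Ccnd2 stayed higher and Cdkn1c lower for tumor over normal in Dclk1+ cells, beside 1.17% and 0.427%. At that threshold 0 of the genes were higher or lower in the tumor pair, beside 0.426% and 0.295% of all genes, and 0 for tumor over normal in Dclk1- cells, beside 1.18% and 1.30%. The median difference of the genes was 0.28 for Dclk1+ over Dclk1- in tumor and 0.08 in normal, against 0.01 for all genes in both, and -0.10 for tumor over normal in Dclk1+ cells and -0.03 in Dclk1- cells, against -0.03 and -0.02 for all genes. The genes moved in opposite directions, so these medians hide the differences of Ccnd2 and Cdkn1c.

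**Figure D2:**
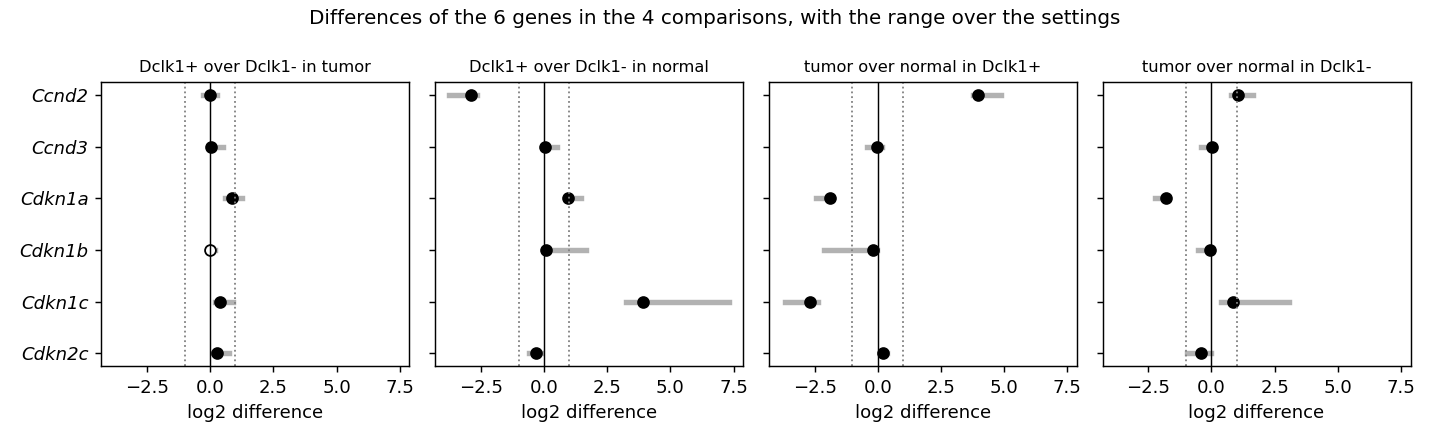
Log2 difference of each of the 6 genes (black points) in the 4 comparisons, with grey bars for the lowest and highest value over the settings tried and dotted lines at 2-fold; the open point is a gene below background on both arrays. The bars of Ccnd2 and Cdkn1c in normal epithelium stay beyond 2-fold, and the longest bar is that of Cdkn1c in normal epithelium, from 3.26 to 7.32.

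The Dclk1+ contrast itself differed between the histologies for Ccnd2 and Cdkn1c. Subtracting the difference in normal epithelium from that in tumor gave 2.89 for Ccnd2 and -3.51 for Cdkn1c, and 1.98% of 13465 genes differed 4-fold or more in this way in either direction. Only 0.022% of genes had a lower value than Cdkn1c, and 99.6% a lower value than Ccnd2. For Cdkn1a the contrast was nearly the same in both histologies, with a difference of -0.08. For Cdkn2c it was 0.60. With 1 array in each group, none of these differences could be tested. Tuft markers and Cdkn1c are set side by side here for each of the 4 comparisons. In Dclk1+ cells 9 of 13 tuft markers were 2-fold or more lower and 1 higher in tumor than in normal (median -1.56), where Cdkn1c was at -2.67, and in the normal pair 12 of 13 were higher and 0 lower (median 4.68), where it was at 3.91. In the tumor pair 10 of 12 were higher and 0 lower (median 3.44), where Cdkn1c was at 0.40, and for tumor over normal in Dclk1- cells 2 of 11 were higher and 1 lower (median -0.03), where it was at 0.83. Markers of other lineages also differed between the samples. The marker counts are to be read against the shares of all genes given above. The enterocyte totals include Pdgfb, a growth factor gene and no enterocyte marker, reached through a synonym of the listed Sis. Pdgfb differed by 0.02 to 0.11 in the 4 comparisons, so it enters the totals but not the higher or lower genes. In the normal pair, where Ccnd2 was at -2.89, 6 of 7 goblet markers were lower and 0 higher, 7 of 10 enteroendocrine markers were lower and 0 higher, and 6 of 10 enterocyte markers were lower and 1 higher. In the tumor pair, where Ccnd2 was at -0.00, 4 of 7 goblet and 5 of 9 enterocyte markers were lower and 0 of either were higher. There 2 of 9 enteroendocrine markers were lower and 1 higher. In Dclk1+ cells, where Ccnd2 was at 3.95 for tumor over normal, 3 of 7 goblet markers were higher and 0 lower. In that comparison 1 of 9 enteroendocrine markers was higher and 1 lower, and 0 of 10 enterocyte markers were higher and 1 lower. In Dclk1- cells Ccnd2 was at 1.06 for tumor over normal, while 4 of 7 goblet, 8 of 10 enteroendocrine and 6 of 10 enterocyte markers were lower and 0 higher. Of 5 Paneth markers, 4 were higher and 0 lower in Dclk1+ tumor than in Dclk1+ normal cells, and 3 were higher and 0 lower in Dclk1- tumor than in Dclk1- normal cells. For Dclk1+ over Dclk1-, 4 of these 5 were lower and 0 higher in the normal pair, and 3 lower and 0 higher in the tumor pair. Summed myeloid intensity, from 8 genes, was 1333 in the Dclk1+ and 3262 in the Dclk1- tumor sample, and 1593 in the Dclk1+ and 443 in the Dclk1- normal sample. The part of these cell types in the values of Ccnd2 and Cdkn1c was not tested.

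**Figure D3:**
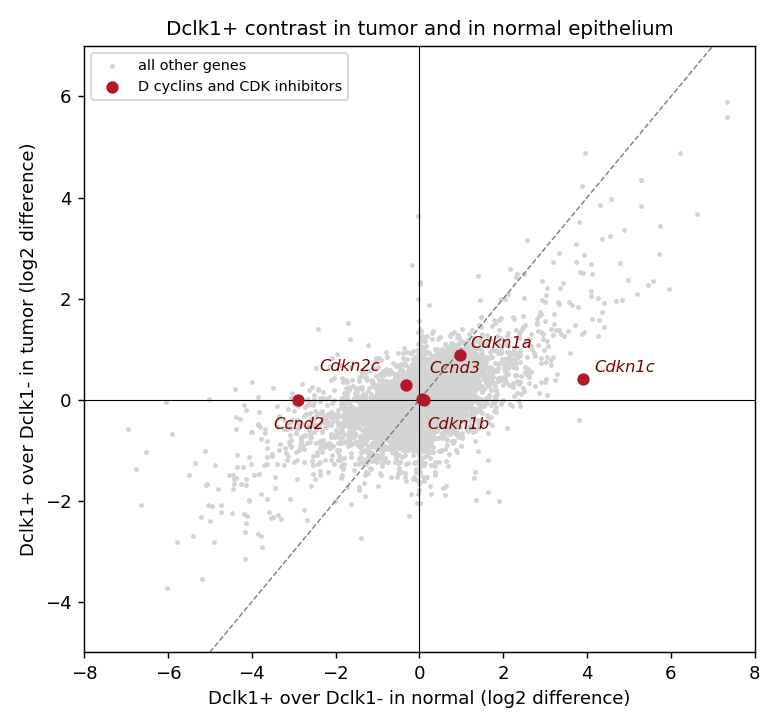
Dclk1+ over Dclk1- log2 difference in tumor (vertical axis) against that in normal epithelium (horizontal axis) for 13465 genes above background on at least 1 array (grey) and the 6 genes (red); the dashed line marks equal differences. Ccnd2 and Cdkn1c lie near 0 on the tumor axis and far from 0, on opposite sides, on the normal axis, while Cdkn1a lies on the line.

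The genes whose signals over the 4 arrays were most like those of the 3 genes with a log2 range of 1 or more were found by the Euclidean distance between centred log2 profiles, among 2909 other genes with such a range. With 4 arrays this likeness is a description of 4 values, and it follows from how the genes were picked. For Ccnd2 they were Kctd14 (distance 0.27), the LIM protein gene Csrp2 (0.46) and the alarmin Il33 (0.63). Il33 stood at 1071 in the Dclk1+ and 956 in the Dclk1- tumor sample, and 8.52 in the Dclk1+ and 279.6 in the Dclk1- normal sample. For Cdkn1a they were the acetyltransferase gene Nat8f2 (0.28), Tapbp, which encodes the peptide-loading protein tapasin (0.31), and Ndufb3, a subunit of respiratory complex I (0.35). For Cdkn1c they were Reep5 (0.63), the lectin receptor gene Clec4a1 (0.68) and the RNA-binding protein gene Rbpms (0.68), all brightest in Dclk1+ normal cells.

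The counts of listed genes that follow are to be read against the shares of all genes that were higher and lower at 2-fold, namely 1.77% and 2.14% in the tumor pair, 5.66% and 5.92% in the normal pair, 4.27% and 4.20% for tumor over normal in Dclk1+ cells and 5.84% and 5.27% in Dclk1- cells. The kinases that D cyclins and Ink4 proteins bind are Cdk4 and Cdk6. Cdk4 stood at 20.1 in Dclk1+ tumor, 34.4 in Dclk1- tumor and 52.97 in Dclk1- normal, and the deposited table lists no value for it in Dclk1+ normal, where it was not above background. Within normal epithelium its Dclk1+ signal was thus lower by at least 1.70-fold, and it was at least 1.25-fold higher in Dclk1+ tumor than in Dclk1+ normal cells. The settings gave these differences as -4.53 to -0.48 and 0.26 to 3.13. Cdk6 was level, from 33.7 in Dclk1+ tumor to 38.3 in Dclk1- normal. Of 9 G1 kinases and other cyclins above background, 2 were lower and 0 higher in Dclk1+ than in Dclk1- normal cells: Ccna2, the S-phase cyclin A2 (-1.80), and the mitotic kinase Cdk1 (-2.30). For tumor over normal in Dclk1+ cells only Cdk1 was 2-fold apart in this list (1.71), and for the tumor pair and for tumor over normal in Dclk1- cells 0 were higher and 0 lower. Over the settings 2 to 5 were lower in the normal pair, and 1 to 5 higher and 0 to 1 lower for tumor over normal in Dclk1+ cells. Of the Rb and E2F list, 0 genes were 2-fold higher or lower in any of the 4 comparisons, with 10 or 11 of 13 above background, while over the settings up to 3 were higher and up to 4 lower in a comparison. Rb1 stood at 39.6 in the Dclk1+ and 85.8 in the Dclk1- tumor sample, and 49.4 in the Dclk1+ and 94.2 in the Dclk1- normal sample, which gave -0.60 in tumor and -0.52 in normal for Dclk1+ over Dclk1-.

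Genes of DNA replication and mitosis act downstream of Rb and E2F. In Dclk1+ cells, tumor over normal gave 5 of 18 replication genes higher and 0 lower (median 0.52), led by Uhrf1, which couples DNA methylation to replication (3.05), the polymerase subunit Pola1 (1.69) and the helicase subunit Mcm7 (1.51). In the same comparison 5 of 12 mitosis genes were higher and 0 lower (median 0.71), among them the anaphase activator Cdc20 (1.97), Birc5, which encodes survivin (1.75), and Nusap1, for a spindle protein (1.32). Dclk1+ over Dclk1- in normal epithelium gave 6 of 13 mitosis genes lower and 0 higher (median -0.90), with Birc5 at -3.64, Cdc20 at -2.65 and the cyclin Ccnb2 at -1.58. In that comparison 3 of 19 replication genes were lower, namely Tk1 (-1.77), Tyms (-1.33) and Pcna (-1.13), and 1 was higher, the single-strand binding protein gene Rpa2 (1.77). In Dclk1- cells, tumor over normal gave 4 of 19 replication genes higher and 0 lower (median 0.39), with Mcm4 at 1.72 but at -0.34 when the local background was subtracted, Cdt1 at 1.59 and Uhrf1 at 1.42. There 0 of 13 mitosis genes were higher or lower at the main setting, and over the settings 0 to 3 were higher and 0 to 3 lower. Between the tumor samples 0 of 19 replication genes were 2-fold apart, against 2 lower with an offset of 16 and with either scaling, 3 lower with the local background subtracted, 5 lower with the blank mean subtracted, and 2 higher and 5 lower with the deposited values, and of 13 mitosis genes 1 was lower, Birc5 (-1.14), which stood at 2.53 with the local background subtracted. Over the settings, tumor over normal in Dclk1+ cells gave 3 to 11 replication genes higher and 0 to 2 lower, and 3 to 9 mitosis genes higher and 0 to 1 lower. In the normal pair 4 to 11 mitosis genes were lower and 0 higher, and 2 to 10 replication genes were lower and 1 to 2 higher. For replication genes in Dclk1- cells, 3 to 10 were higher in tumor and 0 lower. At the main setting, all-gene medians in these comparisons were within 0.03 of 0. With the deposited values they were 0.35 in the tumor pair and 0.27 in the normal pair. For tumor over normal these values gave medians of -0.40 in Dclk1+ and -0.50 in Dclk1- cells.

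**Figure D4:**
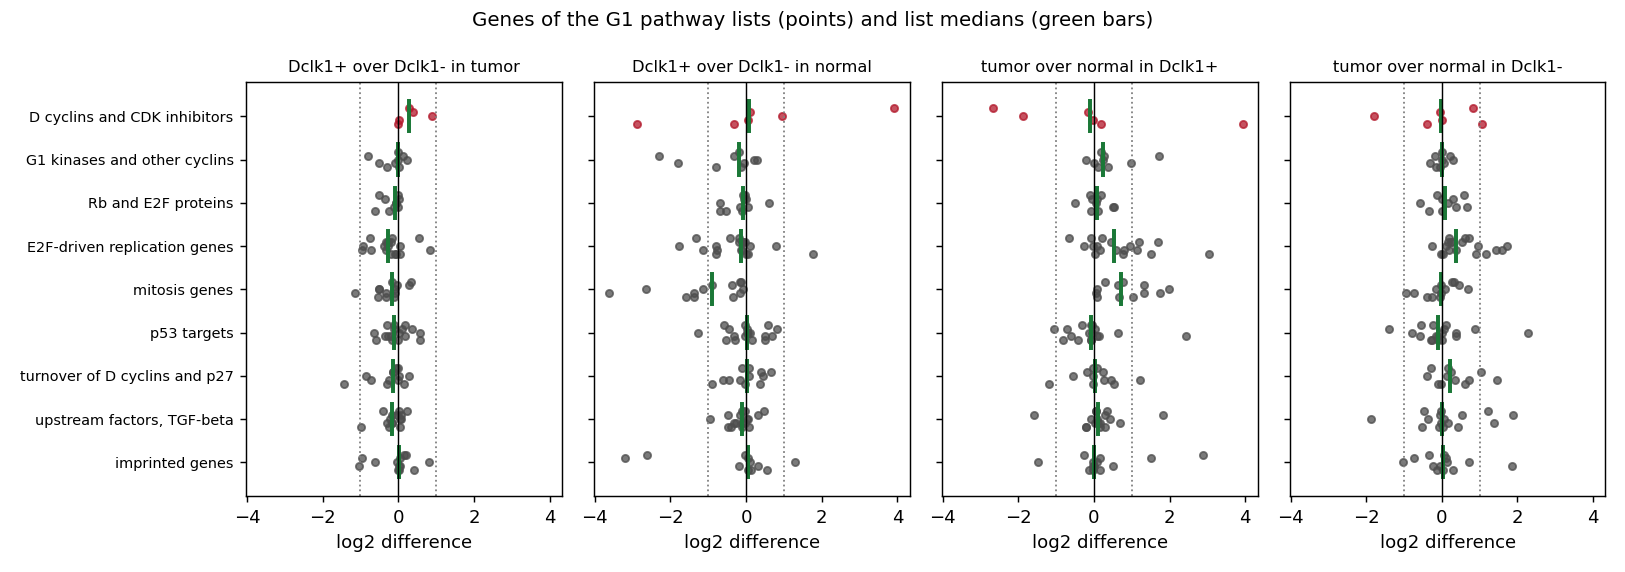
Log2 differences of the genes above background (points) in the D cyclin and CDK inhibitor set (red) and in 8 lists of related genes (grey), with list medians as green bars and dotted lines at 2-fold, for the 4 comparisons. Mitosis genes lie mostly below 0 for Dclk1+ over Dclk1- in normal epithelium and above 0 for tumor over normal in Dclk1+ cells, while the Rb and E2F list lies inside 2-fold at the setting plotted.

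Other targets of p53, a factor known for raising Cdkn1a, were listed with it. For tumor over normal, 1 of 17 in Dclk1+ cells and 1 of 18 in Dclk1- cells were higher, and 1 in each was lower. The higher gene was Phlda3, an inhibitor of Akt signalling, at 2.43 in Dclk1+ cells and at least 4.79-fold higher in Dclk1- cells, where the normal sample was not above background, and the lower one Gadd45a, a stress-response gene, at -1.05 and -1.39. The list medians were -0.08 and -0.10, and over the settings 1 to 2 genes were higher and 0 to 6 lower in Dclk1+ cells, and 1 to 3 higher and 0 to 6 lower in Dclk1- cells. The counts at the main setting lie near the shares of all genes and show nothing particular to the list. Dclk1+ over Dclk1- gave 0 of 17 higher or lower in tumor, and in normal epithelium 0 of 18 higher and 1 lower, the BH3-only gene Pmaip1 (-1.27).

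Among genes for the turnover of D cyclins and p27, Skp2, the F-box protein that targets p27 for degradation, was the gene that was lower. It stood at 75.5 in the Dclk1+ and 272 in the Dclk1- tumor sample, and 302 in the Dclk1+ and 182.7 in the Dclk1- normal sample. It was lower in Dclk1+ tumor cells than in Dclk1- tumor cells (-1.43) and than in Dclk1+ normal cells (-1.18). Its substrate's gene, Cdkn1b, could not be read in tumor (above). Cops5, which encodes a COP9 signalosome subunit, was higher in tumor by 1.22 in Dclk1+ and 1.46 in Dclk1- cells, and Skp1 by 1.03 in Dclk1- cells. With the local background subtracted, the values in Dclk1- cells were -0.31 for Cops5 and -4.24 for Skp1. In all, 1 of 13 genes was lower and 0 higher in the tumor pair, 0 of 12 were 2-fold apart in the normal pair, 1 of 12 was higher and 1 lower for tumor over normal in Dclk1+ cells, and 2 of 12 were higher and 0 lower in Dclk1- cells. Over the settings these counts did not pass 4 higher or 3 lower in any comparison.

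Among upstream factors, Klf4, a factor of differentiated epithelium that activates Cdkn1a in human and mouse cells, was lower in tumor. It stood at 3876 in the Dclk1+ and 3459 in the Dclk1- tumor sample, and 15066 in the Dclk1+ and 14655 in the Dclk1- normal sample, with differences of tumor over normal of -1.58 and -1.89 in Dclk1+ and Dclk1- cells. Myc, a Wnt target that represses Cdkn1a, was dim. Its level was 19.7 in the Dclk1+ and 31.2 in the Dclk1- tumor sample, and 4.26 in the Dclk1+ and 10.2 in the Dclk1- normal sample. Tumor over normal for Myc was 0.30 in Dclk1+ and 0.42 in Dclk1- cells. Over the settings these differences ran from 0.196 to 2.565 and from 0.424 to 1.942. The part of Klf4 or Myc in the values of Cdkn1a was not tested. The TGF-beta receptor gene Tgfbr2 was higher in tumor by 1.83 in Dclk1+ and 1.89 in Dclk1- cells, and the signal transducers Smad4 (1.37) and Smad2 (1.22) were higher in Dclk1- cells. For tumor over normal, 1 of 17 genes of this list was higher and 1 lower in Dclk1+ cells, and 3 of 16 were higher and 1 lower in Dclk1- cells. Between Dclk1+ and Dclk1- cells 0 of 15 in tumor and 0 of 17 in normal epithelium were 2-fold apart. The list medians lay between -0.16 and 0.10 over the 4 comparisons, and over the settings up to 5 genes were higher and up to 7 lower in a comparison.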

How the data were processed

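The members and lists were chosen with earlier results of these data known. Total RNA of sorted cells was amplified and labelled with Cy5, per the labels. Spot and local background intensity, on a linear scale with nothing subtracted, was joined from scans at different gains, per the file headers. From the values, the authors' processed intensity equals the spot value less a constant of 20.4 to 22.9, near the mean of the blank spots, times a factor of 0.989 to 1.68 per array. These columns have their own factor and are not level between arrays. The sources used here do not give the scanner or its software.

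Spot intensities were background corrected with normexp (offset 50) in limma 3.58.1 under R 4.3.3, fitted on all spots. Control spots and 4 flagged probe spots were then left out, and the values were quantile normalized and turned to log2. Local background was not subtracted, since it followed the spot signal (correlation of logs across spots 0.921 to 0.979). The procedure was tested on simulated data. Probes were named from the platform table (6842 unnamed here), brought to GRCm38.p6 symbols. For the 229 genes with several probes the one with the highest mean was used. Named were the 6 genes, up to 3 list genes per direction and comparison 2-fold or more apart, Cdk4, Cdk6, Rb1 and Myc, and 3 nearest genes. The number of arrays limits the precision. Alternatives changed the offset, background correction, values, scaling, background threshold, probe rule and fold.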

Additional observations from a re-analysis of the deposited data

Results flagged for a closer look

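Values that ran in opposite directions in 2 groups under the same contrast are given here, each as a difference between 2 differences that could not be tested with 1 array in each group. Tumor over normal for Cdkn1c was -2.67 in Dclk1+ cells and 0.83 in Dclk1- cells, which differ by -3.51. For Cdkn2c it was 0.19 in Dclk1+ and -0.41 in Dclk1- cells, which differ by 0.60, and the same 0.60 separates its Dclk1+ over Dclk1- values of 0.28 in tumor and -0.31 in normal epithelium, within the SD of 0.66 found between probes of the same gene. For Ccnd3 tumor over normal was -0.03 in Dclk1+ and 0.00 in Dclk1- cells, a difference between them of -0.0327, and its probe is dim.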

How the results depend on the processing

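No paired analysis was possible because each group has 1 array. Values were taken to have moved where they changed by more than the SD between probes of the same gene, 0.39 and 0.79 for Dclk1+ over Dclk1- in tumor and normal, 0.51 and 0.71 for tumor over normal in Dclk1+ and Dclk1- cells, and 0.66 for the difference of differences; the cause was not tested. No called difference of the 6 genes changed sign under any of the alternatives run. The difference of differences of Cdkn1c was -4.53 with an offset of 16, -6.33 with the blank mean subtracted, -2.75 with the local background subtracted and -6.42 with the deposited values. That of Ccnd2 was 3.75 with the blank mean subtracted and 3.89 with the deposited values. For Cdkn1b it was -1.39 and -1.58 at these settings, but both tumor arrays were below background, so neither is read as a change of contrast. With the blank mean subtracted its tumor difference was 0.00 and its normal difference 1.39. Of the counts of genes 2-fold or more higher, that for tumor over normal in Dclk1- cells was 2 with an offset of 16 and with the blank mean subtracted, where Cdkn1c joined Ccnd2. It was 0 with median scaling, with 75th percentile scaling and at 4-fold. The count for Dclk1+ over Dclk1- was 1 in tumor with the blank mean subtracted and with the deposited values, and in normal epithelium 2 with the blank mean subtracted and with 75th percentile scaling and 3 with the deposited values. At 4-fold, the counts of lower genes were 1 and 0 for tumor over normal in Dclk1+ and Dclk1- cells. The deposited values shift the median of all genes to 0.35 and 0.27 for Dclk1+ over Dclk1- in tumor and normal and to -0.40 and -0.50 for tumor over normal in Dclk1+ and Dclk1- cells, and the 75th percentile to 0.13 and 0.14 in the first pair. Subtracting the blank mean shifts it to -0.12 and -0.15 for tumor over normal in Dclk1+ and Dclk1- cells. Of all genes called 2-fold, 45.3% were higher for Dclk1+ over Dclk1- in tumor, against 24.5% with median scaling and 61.9% with the deposited values, and for tumor over normal 50.5% in Dclk1+ and 52.6% in Dclk1- cells, against 33.3% in both with the deposited values. Over all genes, for Dclk1+ over Dclk1- in tumor 216 were higher and 261 lower, against 1336 and 1750 with the blank mean subtracted and 408 and 571 with an offset of 16. Signals near the blanks, as of Ccnd3 and Cdkn1b, limit what can be seen.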

Other observations

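Cdkn1c lies in an imprinted gene cluster, and other imprinted genes were listed with it. For Dclk1+ over Dclk1- in normal epithelium, where Cdkn1c was at 3.91, its cluster neighbours went both ways: Slc22a18, an organic cation transporter gene, was at 1.29, while the tetraspanin gene Cd81 was at -3.20 and Tssc4 at -2.63. Of 11 listed genes above background in that pair, 1 was 2-fold or more higher and 2 were lower, beside 5.66% and 5.92% of all genes, and the list median was 0.05. Slc22a18 stood at 773 in the Dclk1+ and 355 in the Dclk1- tumor sample, and 3209 in the Dclk1+ and 914 in the Dclk1- normal sample. For tumor over normal in Dclk1+ cells Slc22a18 was at -1.49, Cd81 at 1.51 and Tssc4 at 2.89, and in Dclk1- cells Slc22a18 was at -1.02 and Phlda2, a growth-restraining gene of the placenta, at 1.85. Between the tumor samples Phlda2 was at -1.03.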
